A study of Mus musculus with 10 samples.

Results

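The comparison was between the hearts of iSOD2 mice and their control siblings within litter B. Members were chosen by the litter and genotype labels alone, which gave 6 of the 10 sequenced hearts, 3 control and 3 iSOD2. The control mice carried the reverse tetracycline transactivator without the hairpin (Rosa26-rtTA2+/-;TRE-SOD2-shRNA-/-). The iSOD2 mice carried the transactivator together with 1 copy of a short hairpin RNA against Sod2 behind a tetracycline response element (Rosa26-rtTA2+/-;TRE-SOD2-shRNA+/-). Per the methods of the study, the fathers were iSOD2 males and the mothers wild-type C57BL/6J females, and the dams were given doxycycline only during pregnancy, so that all 6 pups were exposed to the drug in utero and the hairpin was switched on in the iSOD2 embryos alone. The transactivator is driven by the ubiquitous Rosa26 promoter and the hairpin sits at the Col1a1 locus, so the knockdown was not limited to the heart, and the iSOD2 mice differed from their siblings in 1 Col1a1 allele as well as in the hairpin. Hearts were taken at 6 weeks of age, from 1 male and 2 females of each genotype. Mice are named here by genotype and number: control 3 (male), control 4 and control 6 (females), iSOD2 9 (male), iSOD2 5 and iSOD2 10 (females). Litter A, with control 1 and 2 (males) against iSOD2 7 (male) and iSOD2 8 (female), is given only beside results of litter B. Its only female was an iSOD2 mouse, so genotype and sex are partly confounded there and in comparisons between the litters.

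Sod2 encodes the manganese superoxide dismutase of the mitochondrial matrix, which turns superoxide leaking from the respiratory chain into hydrogen peroxide. Lasting adaptation to a mild mitochondrial stress is called mitohormesis. The heart is rich in mitochondria, and most of its mRNA comes from cardiomyocytes, while collagens come from fibroblasts and the basement membrane proteins from several cell types. The comparison within 1 litter asks what the embryonic knockdown left behind in the adult heart among siblings that shared a uterus.

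Total RNA was sequenced, and the summed counts in genes ran from 16448090.5 to 20609067 in the control libraries of litter B and from 21147376 to 24263085.5 in the iSOD2 libraries. The iSOD2 libraries were thus all deeper (two-sided exact permutation p = 0.10, the smallest that the 20 arrangements of 3 against 3 allow). Titin (Ttn) alone took 12.5% to 14.9% of the counts, and no library duplicated another. The 7 ventricular myocyte markers summed to between 1496541 and 1650014 normalized counts in every heart, while smooth muscle, endothelial and fibroblast markers overlapped between genotypes. iSOD2 10 stood apart from the other 5 hearts in atrial markers, with Myl7, the atrial myosin light chain, at 372 normalized counts against 1.25 to 5.87 in the others, and Sln at 67.9 against at most 0.99. It also had the highest sum of the 15 hepatocyte markers, 28310 against 8244 to 15306 in the other 5 hearts. Without iSOD2 10 the fit called 16 genes instead of 65.

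Sod2 itself was no lower in iSOD2 hearts at this age. Its normalized counts were 11019 in control 3, 10954 in control 4, 9562 in control 6, 11064 in iSOD2 5, 10695 in iSOD2 9 and 10724 in iSOD2 10. The genotypes overlapped, at 10511 ± 823 (SD) for the 3 controls and 10827 ± 205 for the 3 iSOD2 mice (exact permutation p = 0.80). Expressed as log2 fold change the difference came to 0.04 (SE 0.08, adjusted p = 0.980), and its 95% interval of -0.11 to 0.20 excludes a fall of more than 0.11 at this age. The hairpin was no longer induced after birth, so Sod2 at 6 weeks does not show which hearts had carried it, and the genotypes rest on the labels.

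Across 17065 genes with at least 10 counts in the 6 libraries, 65 differed between genotypes, 33 higher and 32 lower in iSOD2 hearts. A gene was called at a Benjamini-Hochberg adjusted p of at most 0.05 with an absolute log2 fold change above 0.25, and 13088 genes kept an adjusted p, so 0.497% were called, 0.252% higher and 0.244% lower. The typical called gene moved by 0.57 in absolute log2 fold change (median), and 13 rises but no fall exceeded 1. In 62 of the 65 genes the 3 iSOD2 hearts lay wholly above or wholly below the 3 controls. Of all 17065 genes 2699 (15.8%) were separated in this way. All 65 genes kept their direction when any 1 heart was left out, but only 3 of them (Cyp2e1, Col15a1 and Col6a3) were called in each of those 6 fits. The separation and the kept direction follow largely from the choice of the 65 on these same 6 hearts. By edgeR's quasi-likelihood test 1 gene passed, Cyp2e1 (adjusted p = 0.0309, 0.00586% of the genes tested). All 65 moved the same way there with an unadjusted p under 0.05. That carries little information, because edgeR was given the same 6 libraries.

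The called genes fell into a few groups by what they encode, a grouping made after the values were seen. The 12 largest rises and 12 largest falls among called genes that averaged at least 50 normalized counts and did not overlap between genotypes were named by rule, and other genes are named as members of a group or list, chosen after their values were seen. Liver-type transcripts made up 20 of the 33 genes that were higher. Another 7 are known targets of glucocorticoids or of cell stress, and 3 are listed as MHC class I heavy chain genes, with H2-L inside H2-D1. Among the 32 genes that were lower, 8 encode matrix or basement membrane proteins and 7 encode transcription or chromatin proteins. The remaining 20 genes are mixed.

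**Figure D1:**
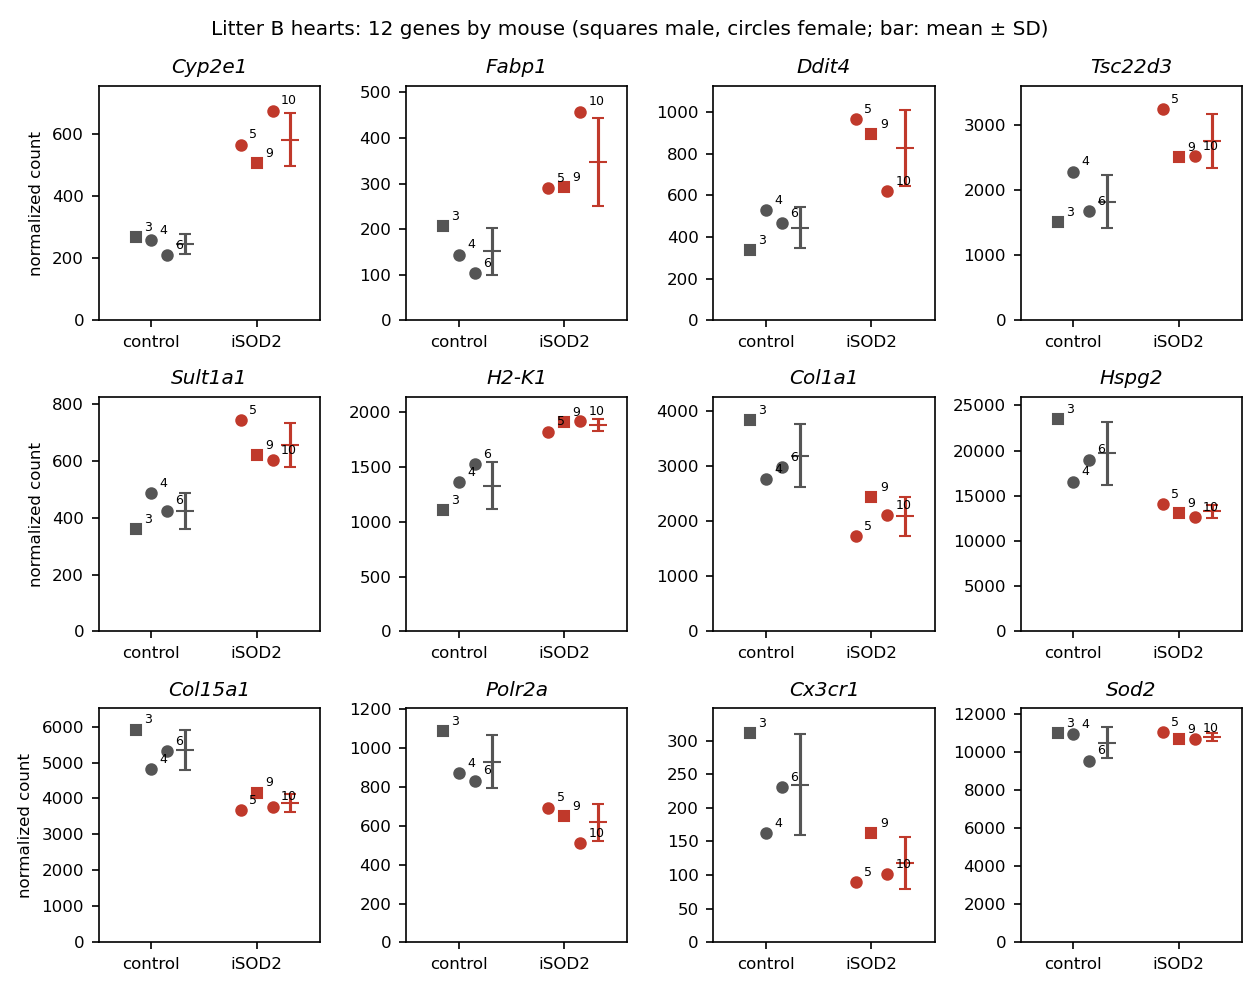
Normalized counts of 12 genes in the 6 litter B hearts, with each panel starting at 0 and each point 1 mouse labelled by its number, squares for males and circles for females, and bars giving the mean ± SD of 3 mice. Cyp2e1, Fabp1, Ddit4, Tsc22d3, Sult1a1 and H2-K1 were higher in all 3 iSOD2 hearts than in any control, Col1a1, Hspg2, Col15a1 and Polr2a were lower in all 3, Cx3cr1 overlapped at 162 counts in control 4 and iSOD2 9, and Sod2 did not differ.

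Before the values of the stress-responsive and MHC class I genes, the sequence upstream of 5 of them is shown, because their induction by glucocorticoid receptor, FOXO factors or NF-κB is textbook knowledge and the letters that these factors read can be looked for directly. Each run is the 250 bases before the RefSeq start site in GRCm38.p6 (mm10), 5′ to 3′ on the strand of the gene. The searched letters were AGAACA (the core letters of a glucocorticoid response element), GTAAACA (a FOXO site), the NF-κB consensus of 10 letters and TGACNNNGC (the core of an antioxidant response element), each on both strands. Matches to the first 3 stand in capitals, and those to TGACNNNGC, 1 each in Nfkbia and H2-K1, are left in lower case. Ddit4 lies on the minus strand with its window at chr10:59951771-59952020, Sgk1 on the plus strand at chr10:21994416-21994665, Sult1a1 on the minus strand at chr7:126676419-126676668, Nfkbia on the minus strand at chr12:55492648-55492897 and H2-K1 on the minus strand at chr17:34000334-34000583.
Ddit4: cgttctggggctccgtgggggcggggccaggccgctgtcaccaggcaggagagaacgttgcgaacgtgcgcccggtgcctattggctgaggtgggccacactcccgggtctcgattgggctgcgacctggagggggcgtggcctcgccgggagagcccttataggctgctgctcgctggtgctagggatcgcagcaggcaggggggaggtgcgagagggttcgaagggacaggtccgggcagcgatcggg
Sgk1: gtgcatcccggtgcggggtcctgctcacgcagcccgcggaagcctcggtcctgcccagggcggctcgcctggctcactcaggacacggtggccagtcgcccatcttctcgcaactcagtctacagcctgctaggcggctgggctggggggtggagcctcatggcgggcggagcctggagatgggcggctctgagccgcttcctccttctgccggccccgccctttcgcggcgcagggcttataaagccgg
Sult1a1: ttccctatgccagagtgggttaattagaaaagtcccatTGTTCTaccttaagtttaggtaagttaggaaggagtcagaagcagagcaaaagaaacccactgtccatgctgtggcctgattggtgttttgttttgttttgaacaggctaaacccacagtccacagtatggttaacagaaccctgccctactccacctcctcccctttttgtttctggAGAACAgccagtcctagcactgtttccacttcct
Nfkbia: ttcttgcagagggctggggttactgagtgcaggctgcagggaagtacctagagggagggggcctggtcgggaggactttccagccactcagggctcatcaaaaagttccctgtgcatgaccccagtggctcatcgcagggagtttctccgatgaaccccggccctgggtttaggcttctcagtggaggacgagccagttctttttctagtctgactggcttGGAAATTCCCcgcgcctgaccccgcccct
H2-K1: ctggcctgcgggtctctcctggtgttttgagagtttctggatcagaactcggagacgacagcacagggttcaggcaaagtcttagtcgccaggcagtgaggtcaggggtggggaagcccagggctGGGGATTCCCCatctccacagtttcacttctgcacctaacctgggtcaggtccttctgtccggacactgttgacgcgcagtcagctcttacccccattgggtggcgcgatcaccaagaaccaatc

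No capitals appear in the windows of Ddit4 and Sgk1, which are rich in G and C (70.0% and 70.4%). Sult1a1 held AGAACA 34 bases before the RefSeq start and again, on the other strand, 212 bases before it, and that start lies 61 bases upstream of the start of the counted transcript. Nfkbia and H2-K1 each held the NF-κB consensus, in H2-K1 as overlapping matches on both strands, and so did H2-D1. Over all 11899 tested genes with a window whose start lay within 100 bases of the counted transcript's, 11.5% held AGAACA, 2.33% GTAAACA, 4.61% the NF-κB consensus and 11.8% TGACNNNGC. Of the 49 called genes with such a window, 8 held AGAACA, 1 GTAAACA, 7 TGACNNNGC and 4 the NF-κB consensus (Flnc, H2-D1, H2-K1 and Nfkbia). A match is no more than these letters in this window, and response elements farther away were not searched.

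The 7 genes that respond to glucocorticoids or stress were higher in iSOD2 hearts by a median log2 fold change of 0.60. Ddit4 encodes REDD1, an inhibitor of mTORC1 that hypoxia, glucocorticoids and energy stress induce. It read 336 in control 3, 529 in control 4, 468 in control 6, 966 in iSOD2 5, 892 in iSOD2 9 and 622 in iSOD2 10, in normalized counts. The iSOD2 hearts were all above the controls, by 0.89 in log2 fold change (SE 0.17, adjusted p = 3.05e-04). Tsc22d3 encodes GILZ, a glucocorticoid-induced leucine zipper protein and a standard readout of the receptor. Its counts were 1509.7, 2286 and 1676 in controls 3, 4 and 6, against 3244 in iSOD2 5, 2510.3 in iSOD2 9 and 2520.5 in iSOD2 10. All 3 iSOD2 hearts again lay above the controls (log2 fold change 0.59, SE 0.14, adjusted p = 8.77e-03).

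Sgk1, a kinase induced by glucocorticoids and mineralocorticoids that controls ion channels, rose from 1086 to 1239 counts in controls to 1346 to 1657 in iSOD2 hearts (log2 fold change 0.42, SE 0.10, adjusted p = 0.0207). Nfkbia, which encodes the NF-κB inhibitor IκBα, rose from 593 to 688 counts to 747 to 986 (log2 fold change 0.47, SE 0.12, adjusted p = 0.0290). These are the genes whose upstream windows are printed above, 1 without and 1 with the NF-κB letters. The gene listed as 8430408G22Rik, now called Depp1 and a FOXO target, had 685 to 880.3 counts in controls and 884 to 1418 in iSOD2 hearts, where iSOD2 10 was only just above control 6.

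Fmo2, a flavin-containing monooxygenase that oxidizes drugs, had 268 counts in control 3, 309 in control 4 and 156 in control 6, and 539 in iSOD2 5, 429 in iSOD2 9 and 409 in iSOD2 10. Its log2 fold change of 0.91 (SE 0.19, adjusted p = 3.09e-03) was the largest of the 7. Sult1a1, a sulfotransferase for phenols, had 361, 488 and 425 counts in controls 3, 4 and 6 and 745, 621 and 602 in iSOD2 5, 9 and 10 (log2 fold change 0.62, SE 0.13, adjusted p = 3.63e-03). In 5 of the 7 genes iSOD2 5 was the highest of the iSOD2 hearts, and no gene of the group peaked in iSOD2 10.

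A wider list of 33 glucocorticoid-induced transcripts, added after values were seen, had 29 positive log2 fold changes with a median of 0.40, and the 7 genes above were its called members. Over all 17065 genes the median was 0.00 and 49.3% were positive. The 4 negative members of the list reached -1.13, and 1 of them had an unadjusted DESeq2 p under 0.05. Its largest rise, 1.51, was that of Tat, which also belongs to the hepatocyte markers described below. Among the positive members that did not pass, 2 familiar targets are given here. Fkbp5, which encodes a co-chaperone of the receptor, had 236 to 408 counts in controls and 376 to 629.9 in iSOD2 hearts, and these ranges overlapped (adjusted p = 0.639). Zbtb16, another gene that the receptor induces, had 2513 to 4443 counts in controls and 3721 to 6188 in iSOD2 hearts (adjusted p = 0.814). The related lists moved less: of 27 FOXO targets 17 were positive and 3 were called (8430408G22Rik, Ddit4 and Tsc22d3), and of 25 genes of the integrated stress response and mitokines 13 were positive and 1 was called, Ddit4. The 21 clock genes had a median of 0.16, with none called, and among them Ciart, a clock repressor, had 134 to 265 counts in controls and 250.4 to 489.8 in iSOD2 hearts, while Per2 had 468 to 944 and 719 to 1316. The part of these clock genes in the stress-responsive rises was not tested.

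In litter A the same 7 genes had a median log2 fold change of -0.02, from -0.09 to 0.14, and 3 of 7 pointed upward. Ddit4 had 231.5 and 587 counts in control 1 and control 2, and 516 and 309.5 in iSOD2 7 and iSOD2 8, and the pair of controls thus spanned the iSOD2 values. The litter A values turned on single hearts, since all 7 were positive without control 2 or without iSOD2 8, 2 were without iSOD2 7 and none was without control 1. Tested as the difference between litters over all 10 hearts, no gene of the 7 passed. Fmo2 (0.83, SE 0.30), Sult1a1 (0.65, SE 0.24) and Nfkbia (0.56, SE 0.24) had unadjusted p of 5.17e-03, 6.19e-03 and 0.0205 in DESeq2, with none below the adjusted threshold. A difference between litters was therefore not shown for any of them. In litter B the calls also leaned on single hearts, since only 1 of the 7 was called without control 3, without iSOD2 5 or without iSOD2 9, and 3 without control 6.

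The 3 MHC class I genes that present peptides to cytotoxic T cells were higher in iSOD2 hearts. H2-K1 (chr17:33996012-34000333 in mm10) had 1103 counts in control 3, 1363 in control 4, 1525 in control 6, 1822 in iSOD2 5, 1911 in iSOD2 9 and 1920.1 in iSOD2 10. The 3 iSOD2 hearts differed little from each other and all lay above the controls (log2 fold change 0.50, SE 0.11, DESeq2 adjusted p = 5.51e-03). H2-D1 rose by 0.43 (SE 0.10) and H2-L by 0.44 (SE 0.10). H2-L is listed wholly within the positions of H2-D1, on the same strand of chromosome 17. They share reads and count as 1 uncertain observation, also where 3 class I genes are counted. A list of class I presentation and antigen loading, added after values were seen, had 16 of 20 tested genes positive, with a median of 0.31. Its called members were the 3 genes that it was built around, and 0.252% of all genes were called higher. In litter A the 3 genes were higher by 0.21 to 0.22 in log2 fold change. No class I gene was called without iSOD2 9 or without iSOD2 10. Of 10 class II genes 6 were positive, with a median of 0.10 and none called, and among 45 interferon-stimulated genes, 33 were positive with a median of 0.09 and none called.

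Cx3cr1, the fractalkine receptor of resident macrophages and monocytes, had the largest fall, -0.99 on the log2 scale (SE 0.24, adjusted p = 0.0171). It had 311 counts in control 3, 162 in control 4, 231 in control 6, 89.5 in iSOD2 5, 162 in iSOD2 9 and 102 in iSOD2 10, so that control 4 and iSOD2 9 met. In litter A it was lower as well, by -0.68, with 248 and 260 counts in the controls and 176 and 141 in the iSOD2 hearts. General macrophage markers overlapped between genotypes. Csf1r had 1662 to 2209 counts in controls and 1341 to 1996 in iSOD2 hearts, the 8 macrophage markers together 7250 to 8781 and 6465 to 8415, and of 20 resident macrophage genes 10 were positive and only Cx3cr1 was called. In RNA of heart tissue, fewer cells of a type and less RNA per cell cannot be told apart.

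Among genes of the extracellular matrix 8 were called, all lower in iSOD2 hearts. Col1a1 (chr11:94936224-94953042), the main chain of type I collagen, had 3827 counts in control 3, 2754 in control 4, 2978 in control 6, 1727 in iSOD2 5, 2427 in iSOD2 9 and 2109.5 in iSOD2 10. The groups did not overlap, and the gene fell by 0.61 on the log2 scale (SE 0.13, adjusted p = 3.12e-03), a level 0.655 times that of controls. Because the hairpin was carried at the Col1a1 locus, an effect of the inserted allele and an effect of the knockdown cannot be told apart for this gene. None of the 237 tested genes within 10 Mb of it was called, beside 0.497% called over all genes. Of these neighbours 6.33% had an unadjusted DESeq2 p under 0.05, against 8.03% elsewhere in the genome. An effect of the inserted allele on Col1a1 itself was not tested by these values. Its partner chain Col1a2 had 4672 to 5301 counts in controls and 3549.9 to 4905 in iSOD2 hearts, and the overlap left it short of the threshold (log2 fold change -0.18, adjusted p = 0.706).

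The other called matrix genes lay elsewhere in the genome. Hspg2, which encodes perlecan, the large heparan sulfate proteoglycan of basement membranes, had 23459.7 counts in control 3, 16569 in control 4, 19002 in control 6, 14082 in iSOD2 5, 13094 in iSOD2 9 and 12670.3 in iSOD2 10. The iSOD2 hearts lay close together below every control (log2 fold change -0.57, SE 0.11, DESeq2 adjusted p = 3.34e-04). Col15a1, a collagen of the basement membrane zone, had 5917, 4816 and 5324 counts in controls 3, 4 and 6, and 3669.9, 4159.8 and 3776 in iSOD2 5, 9 and 10. This gene was called whichever heart was left out (log2 fold change -0.47, SE 0.09, adjusted p = 7.68e-04). Col6a3, a chain of the beaded filament collagen VI, was likewise called in all 6 such fits and fell by 0.41 on the log2 scale (SE 0.08, adjusted p = 2.22e-03), and its companion chain Col6a2 fell by 0.37 (SE 0.10). Col5a1, which starts collagen fibrils, fell by 0.44 (SE 0.11), the fibronectin-domain protein gene Fndc1 by 0.44 (SE 0.12) and Vcan, the proteoglycan versican, by 0.42 (SE 0.11). The smallest gap between genotypes in Col6a3 was from 3778 counts in iSOD2 9 to 4498 in control 4.

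Wider lists leaned the same way. Of 41 tested genes of fibrillar collagens and their partners, 33 were negative, with a median log2 fold change of -0.18, and 4 were called (Col1a1, Col5a1, Col6a2 and Col6a3). Of 25 basement membrane genes, 24 were negative, the median was -0.18, and 2 were called (Col15a1 and Hspg2), against 0.244% called lower over all genes. All 8 called matrix genes were lower in litter A too, by a median of -0.27, from -0.54 for Hspg2 to -0.12 for Vcan. The list of fibrillar collagens as a whole had a median of -0.00 in litter A, and that of the basement membrane -0.17. Without iSOD2 10 the calls of Col1a1 and Hspg2 were lost, and 2 of the 8 genes (Col6a3 and Col15a1) kept theirs. The 7 fibroblast markers overlapped between genotypes and summed to 35394 to 40708 counts in controls and 38031 to 44032 in iSOD2 hearts, and Pdgfra, the receptor that defines cardiac fibroblasts, had 1788 to 2060.1 and 1616 to 1944.

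The 7 called genes that encode transcription and chromatin proteins were all lower in iSOD2 hearts. Polr2a, the largest subunit of RNA polymerase II, had 1087 counts in control 3, 869 in control 4, 832 in control 6, 693 in iSOD2 5, 651 in iSOD2 9 and 512 in iSOD2 10. No iSOD2 heart reached the lowest control (log2 fold change -0.59, SE 0.13, DESeq2 adjusted p = 8.66e-03). In litter A it had 1208 and 1261 counts in the controls and 787 and 725 in the iSOD2 hearts, a log2 fold change of -0.71. The transcriptional coactivator gene Zmiz1 fell by 0.58 (SE 0.14), with 993 to 1394 counts in controls and 665 to 963 in iSOD2 hearts. Nfic, a member of the nuclear factor I family, fell by 0.52 (SE 0.14), and its lowest control, 1252.6 counts, was barely above its highest iSOD2 heart, 1251.4.

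The zinc finger gene Rreb1 fell by 0.43 (SE 0.11) and Srcap, the ATPase of a histone exchange complex, by 0.38 (SE 0.10). In each of the 7 genes of the group control 3 was the highest control and iSOD2 5 the highest iSOD2 heart. Of 45 genes of RNA polymerase II and Mediator 25 were positive, with a median of 0.03, and only Polr2a was called. Of 63 chromatin remodellers and histone lysine enzymes, 52 were negative, with a median of -0.09 and 3 called, Srcap among them. These are long genes, with a median exon length of 6619 bp. With the trend on exon length removed, their median was -0.02, 29 of the 63 were positive and none was called. All 7 genes were lower in litter A, by a median of -0.44. None of the 7 was called in litter B without control 3 or without iSOD2 10.

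Other genes that fell code for signalling, cytoskeletal and transport proteins. Irs1, the docking protein of the insulin receptor, had 2856, 2410 and 3326 counts in controls 3, 4 and 6 and 2152, 2200.2 and 1954 in iSOD2 5, 9 and 10 (log2 fold change -0.45, SE 0.11, DESeq2 adjusted p = 0.0196). In litter A its log2 fold change was 0.14, and the difference between litters was -0.58 (SE 0.16, unadjusted p = 2.81e-04, adjusted p = 0.521), the lowest interaction p of the 65 genes and not past the threshold. Of 31 genes of insulin and IGF signalling, 19 were negative and only Irs1 was called. Slc38a1, an amino acid transporter, fell by 0.53 (SE 0.13) in litter B and had a log2 fold change of 0.08 in litter A.

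Flnc, the muscle filamin of the Z-disc, had 15029.5 to 16639 counts in controls and 11177 to 13723 in iSOD2 hearts (log2 fold change -0.38, SE 0.09, adjusted p = 0.0124). It was the only called gene among 40 of the sarcomere and Z-disc. Egln3, an oxygen sensor of the HIF pathway, fell by 0.44 (SE 0.12), from 1134 to 1321 counts in controls to 835 to 1081 in iSOD2 hearts. Lrp1, an endocytic receptor, fell by 0.39 (SE 0.11), and so did the chloride cotransporter gene Slc12a7, by 0.36 (SE 0.09). The remaining large falls by the naming rule were Gal3st3 (-0.76, SE 0.20), a sulfotransferase gene, Ppp1r13l (-0.64, SE 0.17), which encodes the p53 inhibitor iASPP, Nav2 (-0.53, SE 0.12), Rgma (-0.51, SE 0.13), a BMP coreceptor gene, and Soga1 (-0.46, SE 0.11).

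The largest rises were of transcripts best known from liver. Cyp2e1 (chr7:140763832-140774977), a cytochrome P450 that oxidizes ethanol and small solvents, had 268 counts in control 3, 259 in control 4, 210.5 in control 6, 566 in iSOD2 5, 505 in iSOD2 9 and 675 in iSOD2 10. Its rise of 1.24 on the log2 scale (SE 0.14, a 2.37-fold higher level, adjusted p = 5.41e-14) had the lowest p of all genes. Fabp1, the liver fatty acid binding protein, had 207, 144 and 103 counts in controls 3, 4 and 6 and 290.5, 293 and 458 in iSOD2 5, 9 and 10 (log2 fold change 1.20, SE 0.22, adjusted p = 2.15e-04). Both genes separated the genotypes completely. Apoa2, an apolipoprotein of HDL, ranged from 221 to 273 counts in controls and from 321 to 460 in iSOD2 hearts (log2 fold change 0.69, SE 0.15).

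The 20 liver-type genes had a median log2 fold change of 1.16, from 0.69 to 1.54, at mean levels of 49.3 to 414 normalized counts. They include the complement genes Cfi (1.54, SE 0.39) and Hc (1.16, SE 0.28), the apolipoprotein genes Apoc3 (1.24, SE 0.31), Apoc1 (1.11, SE 0.27) and Apoh (0.94, SE 0.26), the clotting zymogen gene Plg (0.86, SE 0.22), and the xenobiotic enzymes Cyp2d10 (1.26, SE 0.34) and Gsta3 (0.88, SE 0.22). The other rises named by the rule were 1300017J02Rik (1.34, SE 0.34), Nat8f2 (1.29, SE 0.35), Rgn (1.24, SE 0.27), Azgp1 (1.23, SE 0.29) and Pigr (1.06, SE 0.26). Control 3 was the highest control in 17 of the 20 genes and iSOD2 10 the highest iSOD2 heart in 18, so the genes moved together from heart to heart.

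Defining markers of hepatocytes moved with them. Albumin (Alb) had 6698 counts in control 3, 3932 in control 4, 3926 in control 6, 7292 in iSOD2 5, 6275 in iSOD2 9 and 14601 in iSOD2 10. Control 3 was above iSOD2 9, and albumin was not called (log2 fold change 0.95, adjusted p = 0.625). All 15 hepatocyte markers had positive fold changes and none was at 0. Their sum was 8244 to 14961 counts in controls and 15289 to 28310 in iSOD2 hearts, a difference of 0.95 in mean log2 level (exact permutation p = 0.10, 0.95 after adjustment over 15 marker lists). Apoa2 and Apoc3 belong both to those markers and to the 20 called genes. With the hepatocyte level of each heart as a covariate, a fit added after the values were seen, the median of the 20 genes dropped to 0.47 and 1 of them was called. The same fit called 6 of the 7 stress-responsive genes, 2 of the 3 MHC class I genes, 3 of the 8 matrix genes, 1 of the 7 transcription and chromatin genes and 3 of the 17 other falls. The hepatocyte level was itself higher in every iSOD2 heart (9.03 to 9.76) than in any control (7.95 to 8.96), and it includes Apoa2 and Apoc3. This fit therefore cannot separate hepatocyte level from genotype. The part of the hepatocyte markers in these results was not tested further.

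Without iSOD2 10, 1 of the 20 genes was called (Cyp2e1), and without control 6, 2. With the litter B difference fitted together with litter A over all 10 hearts, none of the 20 was called. Cyp2e1 was the only one of them with an adjusted p in that fit (0.606), so the rest could not be called. That fit gave an adjusted p to 7069 of 17728 genes and called 60 in all, 35 of them among the 65. In litter A the median log2 fold change was 2.25 and all 20 genes were higher in iSOD2 hearts, but that contrast turned on control 1, which held the lowest value of all 10 hearts in 19 of the 20 genes. Cyp2e1 had 5.43 counts in control 1, 146 in control 2, 215 in iSOD2 7 and 660.5 in iSOD2 8. Without control 1 the litter A median was 1.33, without iSOD2 8 it was 1.42 and without control 2 it was 6.16, and all 20 genes were still higher each time. The 42 genes of the cytochrome P450 and xenobiotic enzyme list had 39 positive fold changes, a median of 0.35 and 5 called (Aldh1a1, Cyp2d10, Cyp2e1, Fmo2 and Sult1a1). Aldh1a1, which makes retinoic acid, rose by 0.48 (SE 0.13), and Thrsp, a lipogenic gene responsive to thyroid hormone, rose by 0.62 (SE 0.15).

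**Figure D2:**
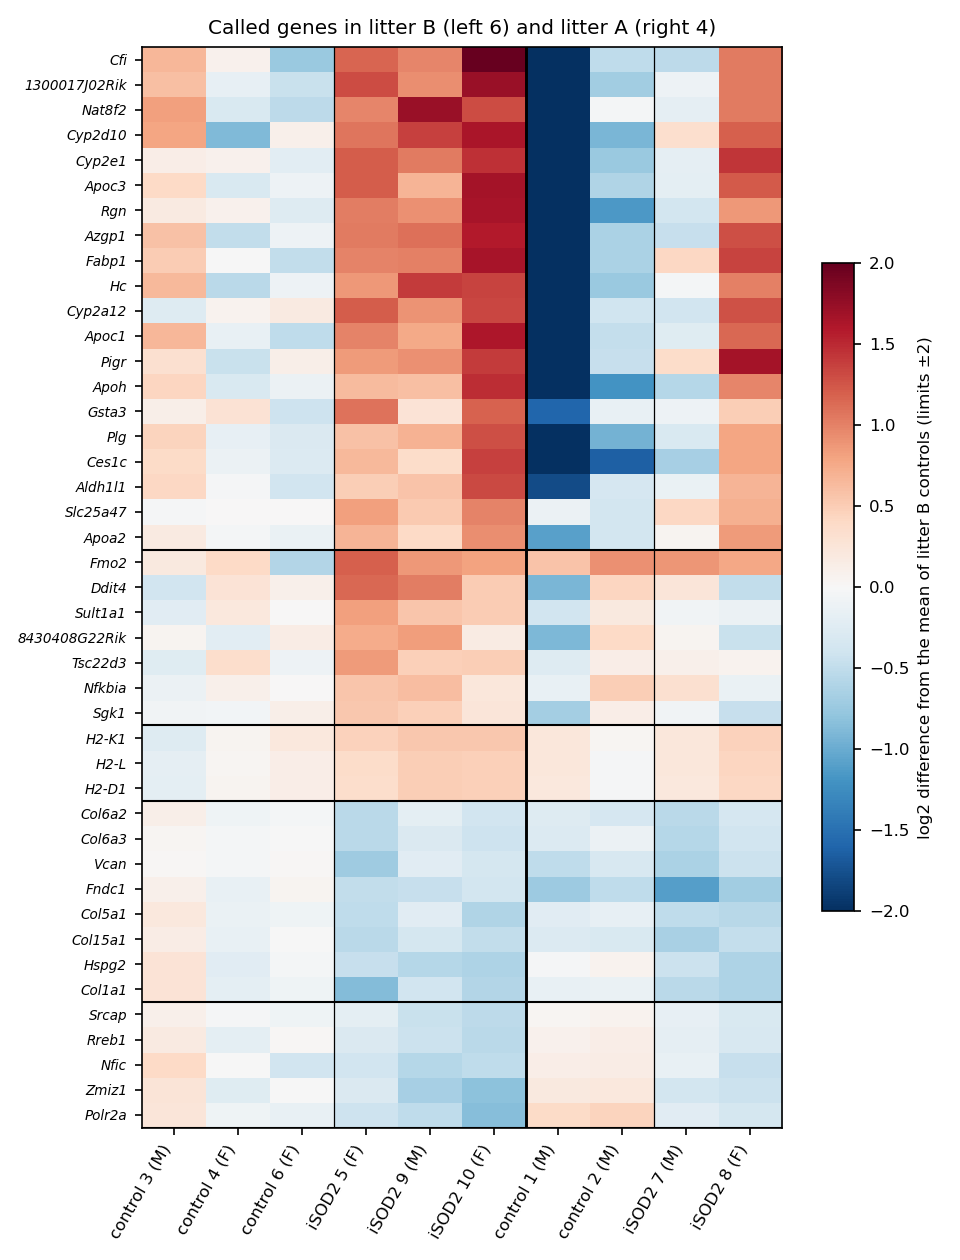
Level of 43 called genes in 5 groups (liver-type, stress-responsive, MHC class I, matrix, transcription and chromatin, from top to bottom) in all 10 hearts, as the log2 difference from the mean of the 3 litter B controls, with colours limited to ±2. The stress-responsive block is red in the 3 iSOD2 hearts of litter B and mixed in litter A, the matrix and chromatin blocks are mostly blue in the iSOD2 hearts of both litters, the matrix block is also pale blue in the litter A controls, and control 1 of litter A is the lowest heart in 19 of the 20 liver-type rows.

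No gene of the respiratory chain was called, yet nearly all leaned upward. Of 104 tested nuclear-encoded subunits and assembly factors of complexes I to V, 98 had a positive log2 fold change, and 50 of them had an unadjusted p under 0.05, as did 6.47% of all genes (591 higher and 512 lower). The median was 0.16, and 0.05 with 75 positive with the trend on exon length removed. Complex I contributed 49 genes (46 positive, median 0.16), complexes II and III 15 (14 positive, 0.17), complex IV 22 (20 positive, 0.15) and the ATP synthase 18 (all positive, 0.17). Ndufa4, now counted with complex IV, had 5928, 7141 and 6340.0 counts in controls 3, 4 and 6 and 8294, 8005 and 7650.1 in iSOD2 5, 9 and 10. That was a clean separation but not a call (log2 fold change 0.30, SE 0.09, DESeq2 adjusted p = 0.0666). Ndufb2 of complex I (0.32, SE 0.09) and Atp5j2 of the ATP synthase (0.26, SE 0.08) were similar, with adjusted p of 0.0728 and 0.103. No gene of the mitochondrial genome is in the table, so its 13 protein-coding genes were not analysed here.

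All 78 cytosolic ribosomal protein genes were positive, with a median of 0.16 that became 0.03 without the length trend, and 74 of 77 mitochondrial ones, with a median of 0.14, and none was called. Genes of the proteasome (34 of 38 positive, median 0.13), of fatty acid uptake and oxidation (21 of 27, 0.09) and of the citric acid cycle and pyruvate oxidation (20 of 28, 0.05) had smaller medians and no called gene. Acaa2, a thiolase of mitochondrial fatty acid oxidation, had 12348 to 14663 counts in controls and 15578 to 16210.5 in iSOD2 hearts (log2 fold change 0.23, SE 0.08, adjusted p = 0.234). The regulators of mitochondrial biogenesis had 11 of 17 negative fold changes and a median of -0.07, and Pprc1, a coactivator of that family, had 346 to 475 counts in controls and 301 to 319 in iSOD2 hearts (log2 fold change -0.43, SE 0.14, adjusted p = 0.165).

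Antioxidant lists held little movement. Of 30 genes of superoxide and peroxide detoxification 21 were positive, with a median of 0.12, of 36 of glutathione synthesis and transferases 27, with 0.13, and of 28 of NRF2 and its targets 14, with -0.00. Gsta3 was the only called member of these lists, and it overlapped between genotypes, with 162 counts in control 4 and 160 in iSOD2 9. A panel was made of the genes whose RNA or protein had been measured by other assays in this work. These 26 genes had 22 positive fold changes and none called, and 1 of them, Gsta1, was too scarce for an adjusted p. Nfe2l2, which encodes NRF2, had 1121 to 1316 counts in controls and 1348 to 1399 in iSOD2 hearts (log2 fold change 0.14, adjusted p = 0.788). Foxo3 overlapped widely, with 1566 to 1962 and 1552 to 2229. Ppargc1b, a coactivator of mitochondrial genes, had the lowest p of the 26 (log2 fold change -0.26, SE 0.11, adjusted p = 0.398).

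Of the 40 sarcomere and Z-disc genes 6 were higher and 5 lower without overlap between genotypes, and Flnc alone was called. Of all 17065 genes, 15.8% were separated in either direction. Among the stress markers of the heart, Nppa, the atrial natriuretic peptide gene, had 498 to 809 counts in controls and 579 to 1879.5 in iSOD2 hearts, highest in the heart with atrial markers, and Nppb had 554 to 937 and 707 to 1034. Myh7, the slow myosin of the fetal program, had 32506 to 35877 and 29847 to 37225. Of 38 proliferation genes 34 were negative with a median of -0.22 and none called. Mki67 had 811 to 1312 counts in controls and 466 to 934 in iSOD2 hearts (adjusted p = 0.798), and in litter A that list had a median of 0.11.

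**Figure D3:**
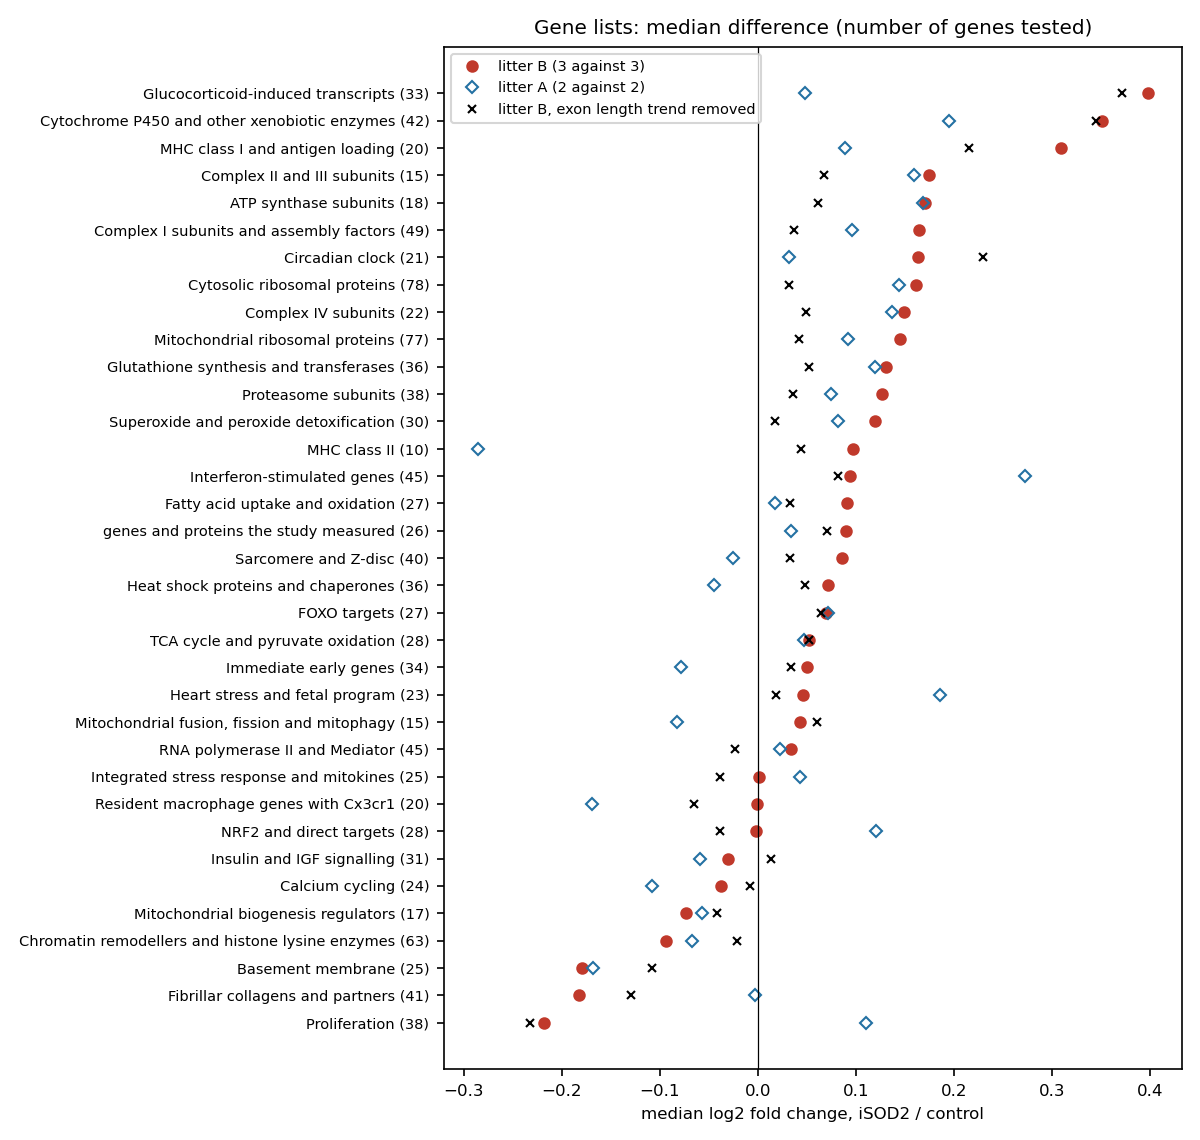
Median log2 fold change of iSOD2 over control for each gene list, with the number of genes tested in brackets, in litter B (filled circles), in litter A (open diamonds) and in litter B after the trend with exon length was removed (crosses). Respiratory chain and ribosomal lists sit near 0.16 in litter B and between 0.03 and 0.07 after it, while the glucocorticoid, xenobiotic and proliferation lists hardly move with it.

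The sign of a small difference went with the length of the gene. Over 12174 genes that averaged 50 normalized counts or more, the log2 fold change in litter B had a Spearman correlation of -0.44 with exon length, a description across genes that share the same 6 libraries. Among genes of at most 1676 bp the median was 0.11, and among those of 4929 bp or more it was -0.08, when genes were split by length into 5 equal classes. The 33 called rises had a median exon length of 1636 bp and the 32 called falls 6764 bp, against 2934 bp for all genes with an adjusted p, and 26 of the 32 falls lay in the longest class. Within each heart, the slope of the log2 deviation per doubling of length was 0.032 ± 0.019 (SD) over the 3 controls and -0.032 ± 0.017 over the 3 iSOD2 mice (exact permutation p = 0.10). The genotypes did not overlap in this slope, and it was steepest in control 3 (0.049) and iSOD2 10 (-0.048).

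With that trend removed within each library, 21 genes were called, 18 of them among the 65. Of the 7 stress-responsive genes 5 were still called, of the 8 matrix genes 4, of the 20 liver-type genes 5 and of the 7 transcription and chromatin genes 1. Cyp2e1, Col1a1 and Hspg2 were among those kept. The median of the respiratory chain genes, whose own median length is 823 bp, dropped from 0.16 to 0.05, with 75 of 104 positive, and that of the cytosolic ribosomal genes from 0.16 to 0.03. The proliferation list stayed at -0.23. The source of the trend was not tested.

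**Figure D4:**
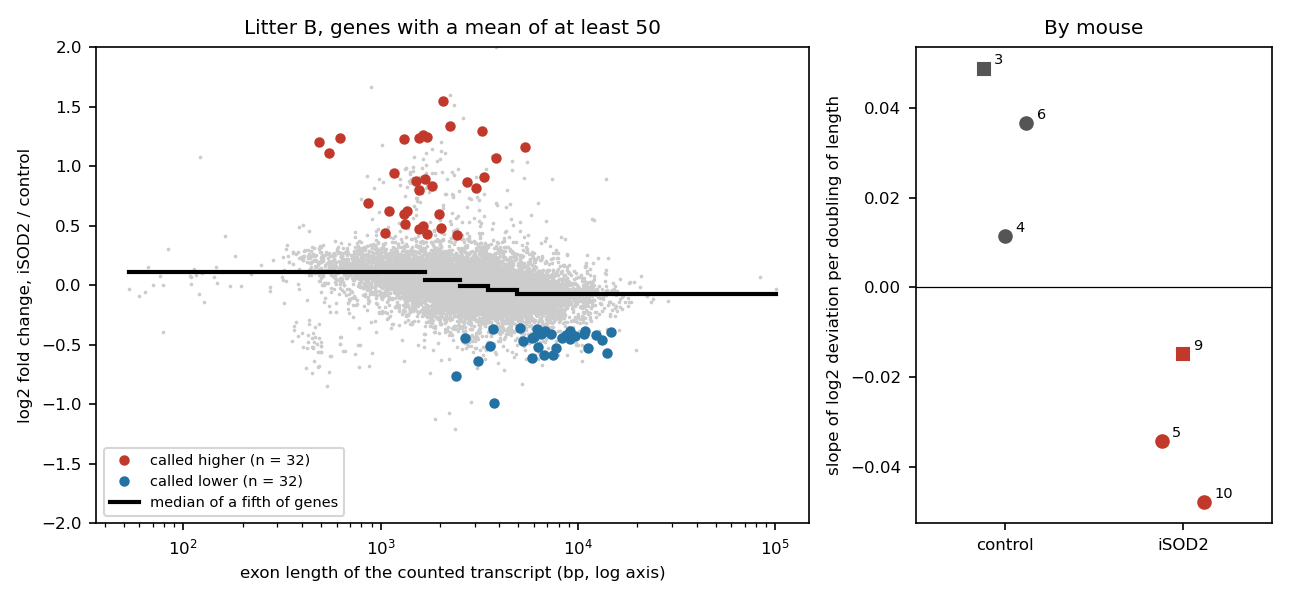
Left, log2 fold change of iSOD2 over control in litter B against exon length on a log axis for genes averaging 50 normalized counts or more (grey), with the called genes in red and blue and black bars at the median of each of 5 length classes, and with the vertical axis limited to ±2 (32 of the 33 rises are shown, since Cyp2a12 averaged 49.3 counts). Right, the slope of each heart's log2 deviation per doubling of exon length. The called falls crowd at the long end, with a median of 6764 bp, and the 3 controls lie above 0 while the 3 iSOD2 hearts lie below it.

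Litter A gave values from other mice for the same genes. Of the 65 genes, 58 (89.2%) had the same sign in litter A, against 62.9% of all 16516 genes tested in both litters, and the log2 fold changes of both litters had a Pearson correlation of 0.50 over 12174 genes, 0.46 with the length trend removed from both. These are descriptions across genes, which are not independent replicates. In litter A 121 of 4376 genes with an adjusted p were called (2.77%), and 15 genes were called in both litters, 23.1% of the litter B genes and 12.4% of the litter A genes. All 15 were lower in iSOD2 hearts. They include Col1a1, Col5a1 and Hspg2 of the matrix, Polr2a, Zmiz1, Nfic and Rreb1 of the transcription group, and Flnc, Lrp1, Nav2, Slc12a7, Ankrd52, Prrc2a and Iqsec1. A gene without an adjusted p in litter A could not be called there. Among the rises that held for every liver-type gene and for Ddit4, Fmo2, Sult1a1, Thrsp and Aldh1a1. It also held for some falls, Cx3cr1 among them. The shared calls and their common direction are limited by this. Each of the 15 had an exon length of 5104 bp or more, within the longest of the 5 length classes. The log2 fold change in litter A also went with exon length, with a Spearman correlation of -0.36 over 12174 genes. Its median in litter A was 0.10 in the shortest class and -0.08 in the longest. The part of exon length in the 58 shared signs and the 15 shared calls was not tested. The 7 genes that pointed the other way in litter A were Sult1a1, Slc38a1, 8430408G22Rik, Irs1, Sgk1, Nfkbia and 1810011O10Rik, where their log2 fold changes lay between -0.09 and 0.14.

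**Figure D5:**
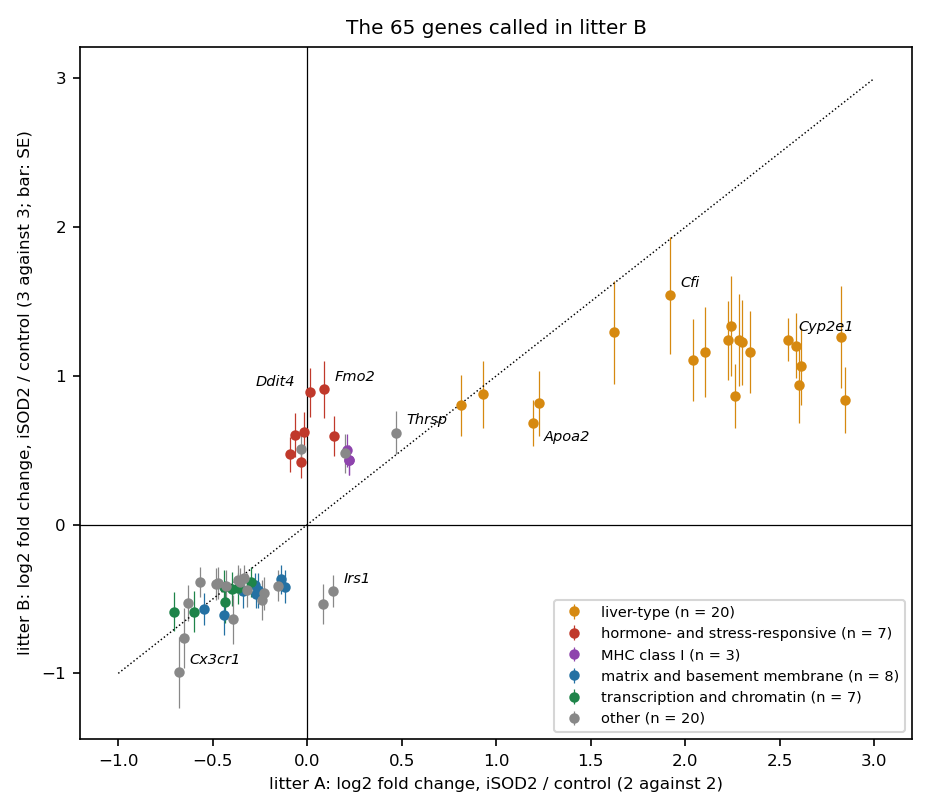
The 65 genes called in litter B, with the log2 fold change of iSOD2 over control in litter B (vertical, 3 against 3, bars giving the SE) against that in litter A (horizontal, 2 against 2), coloured by group, and with a dotted line where the litters are equal. Liver-type genes lie at 0.81 to 2.85 in litter A, stress-responsive genes lie at about 0 there, and most of the falls lie near the line.

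A test of the difference between litters, as the interaction of genotype and litter over all 10 hearts, passed for 1 of 17721 genes (0.00564%, with 317 at an unadjusted p under 0.05). That gene was Wdfy1 (chr1:79702262-79761769), which encodes an endosomal adaptor protein. It had 540 to 607 counts in all 6 litter B hearts and 541 and 571 in control 1 and control 2, but 296 in iSOD2 7 and 260.1 in iSOD2 8. The genotypes were thus level in litter B and apart in litter A, and this interaction (SE 0.17 on the log2 scale) had an adjusted p of 2.72e-05. The next genes by p were led by an adjusted p of 0.0588 and included the class II chains H2-Aa (0.94, SE 0.22, adjusted p = 0.118) and H2-Ab1 (0.77, SE 0.19, adjusted p = 0.293), and none of these passed. Of the 65 called genes 6 had an unadjusted interaction p under 0.05 (Sult1a1, Slc38a1, Fmo2, Irs1, Nfkbia and 1810011O10Rik), against 1.79% of all genes.

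The direction of the calls within each sex of litter B carries little information, because the called genes were chosen on the same mice. The 62 genes without overlap between genotypes could hardly change direction within 1 sex. In the 1 pair of males 64 of the 65 genes moved the way they did over all 6 hearts, and in the 4 females all 65 did. So did 14142 of all 16602 genes tested in the females. Among the females alone 56 genes were called, 48 higher and 8 lower, and 21 of them belonged to the 65. With sex in the model 43 genes were called, 36 of them among the 65.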

How the data were processed

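Total RNA of heart tissue was depleted of ribosomal RNA and sequenced. Per the labels and methods, the authors trimmed reads with Trim Galore, aligned them with STAR to mm10 and counted exon reads per gene with HOMER, keeping 1 transcript a gene. The deposited values are expected counts (estimated counts in steps of 0.5) that the authors had not normalized. The strand setting of the counting is not given in the sources used here, so overlapping genes are uncertain.

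The counts were rounded and fitted with DESeq2 1.42.0 (R 4.3.3), Wald test, median-of-ratios factors, genotype as the only term, and genes with at least 10 counts summed over the 6 litter B libraries. Genes were called at a Benjamini-Hochberg adjusted p of at most 0.05 and an absolute log2 fold change above 0.25. Every adjusted p in the text is from DESeq2 unless edgeR 4.0.16 is named, and normalized counts were scaled over all 10 libraries. The scripts were tested on simulated data. Alternatives were edgeR, TMM and upper-quartile factors, other filters, sex as a term, females alone, all 10 hearts, removal of the exon length trend and each heart left out. A fit with hepatocyte level was chosen after seeing the data. The naming rule took the 12 largest rises and 12 largest falls among called genes that averaged 50 normalized counts or more and whose genotypes did not overlap. Members and lists were chosen with earlier results of these data known. The lists of glucocorticoid-induced, MHC class I, MHC class II, resident macrophage, FOXO and insulin and IGF genes were added after values were seen. Each heart is a separate mouse. The values of some called genes are not reported here.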

Additional observations from a re-analysis of the deposited data

Results flagged for a closer look

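Wdfy1 was singled out because its genotype difference changed between litters by a test of that change. The interaction of genotype and litter over all 10 hearts had a DESeq2 adjusted p of 2.72e-05. In litter A it read 296 and 260.1 normalized counts in the iSOD2 hearts against 541 and 571 in the controls, on 2 mice of each genotype, while the 6 litter B hearts all had 540 to 607. Without iSOD2 8 no gene passed that test.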

How the results depend on the processing

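No paired analysis was possible because the mice carry distinct numbers that tie no control to an iSOD2 heart. The count of 65 genes became 1 with edgeR's quasi-likelihood test (1703 at an unadjusted p under 0.05), 43 with sex in the model and 21 with the exon length trend removed. Leaving out 1 heart gave 16 (without iSOD2 10) to 129 (without control 4), with 27 without control 6. The interaction count of 1 became 2 with TMM factors and ranged from 0 (without iSOD2 8) to 37 (without control 2). The direction in litter A of the genes called in litter B was shared by 62.5% (without iSOD2 10) to 98.1% (without control 3).

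With the hepatocyte level in the model, a fit chosen after seeing the data, 63 of the 65 called genes kept their direction, and Aldh1l1 and Ces1c turned to -0.0312 and -0.0012. Among genes that were not called, log2 fold changes turned to -0.0263 for Sod2, -2.18 for Myl7, -9.03 for Sln, -0.13 for Alb, 0.12 for Myh7 and -0.0739 for Wdfy1. With the length trend removed they turned to 0.12 for Ttn and 0.000337 for Myh7, and with upper-quartile factors to -0.00241 for Wdfy1 in litter B. Over the fits that left out 1 heart, Sod2 ranged from -0.0215 to 0.0762, Ttn from -0.11 to 0.0279, Csf1r from -0.28 to 0.00119, Foxo3 from -0.13 to 0.14 and Wdfy1 from -0.0382 to 0.0431. The cause of these shifts was not tested. With 3 hearts a genotype, an exact test of a single value cannot fall below 0.10.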
